A study of Homo sapiens with 8 samples.

Results

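Histone genes were taken from the count table of MP38 cells by their older symbols, HIST1H to HIST4H for the genes of the histone clusters and H1F, H2AF, H2BF or H3F for the genes outside them. The rule gave 94 of the 35238 gene symbols, 75 of them clustered and 19 outside, after 26 symbols marked as pseudogenes were left out. It works on symbols alone, and 5 clustered members that GENCODE 29 annotates as pseudogenes were kept: HIST2H2BA, HIST2H2BB, HIST2H2BC, HIST2H2BD and HIST3H2BA. HIST2H3A and HIST2H3C, whose annotated transcripts share all of their sequence, carried the same count in every library and were treated as 1 measurement, which left 93. MP38 is a uveal melanoma (UM) cell line with mutant BAP1, a deubiquitinase that acts on histone H2A. Cells were kept for 24 h in 40 nM romidepsin, 40 nM quisinostat or 1200 nM mivebresib, each in 0.1% DMSO, and control cells in 0.1% DMSO alone. The former 2 drugs are inhibitors of histone deacetylases (HDAC), while mivebresib occupies the bromodomains of BET proteins, which bind acetylated histones. Bulk RNA sequencing gave 2 libraries for each of the 4 groups, grown in separate wells of this single line, and the question was how the histone genes differed between each drug and the control and between the drugs.

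Clustered histone genes are mostly replication-dependent: they are transcribed in S phase, when newly copied DNA needs histones, and lack introns. Their mRNAs normally end in a stem-loop in place of a poly(A) tail, which the stem-loop binding protein SLBP recognises, although many of these genes can also give longer polyadenylated transcripts. Many genes outside the clusters encode replacement variants that are made through the cell cycle as ordinary polyadenylated mRNAs. This does not hold for every gene there: the annotated transcripts of H2AFX carry the stem-loop sequence. Copies of H2A, H2B, H3 and H4 form the core of a nucleosome, and H1 is the linker histone that sits on the DNA where it enters and leaves. The libraries were prepared from mRNA, so the counts may represent polyadenylated histone transcripts more than stem-loop transcripts. None of 14 listed RNAs that lack a poly(A) tail was among the symbols of the table, and the share of such RNA in the libraries was not tested.

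The stem-loop is shown for members on which the results turn, as given by GENCODE 29 transcripts on GRCh38, 5′ to 3′ in DNA letters with the stem-loop in capitals. The letters GG, 2 bases of any kind, CTTTT, any base, AG, any base and GCC were searched in that order on the transcript strand and stood in 35 members, 34 of them clustered, and in 45 (0.0788%) of 57133 gene symbols. The 35th member was H2AFX, which lies outside the clusters and encodes H2A.X, the variant phosphorylated at DNA breaks. HIST1H1C, HIST1H2BK and HIST1H3E have no line here, since their annotated transcripts did not hold these letters, and the models of HIST1H1C and HIST1H2BK, 642 and 381 bases, have the length of the coding sequence.
HIST1H2AC: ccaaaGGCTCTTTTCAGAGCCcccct
HIST1H2BC: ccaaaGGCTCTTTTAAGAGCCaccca
HIST1H2BG: tcaaaGGCTCTTTTCAGAGCCactca
HIST2H2BE: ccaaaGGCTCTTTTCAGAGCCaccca
HIST1H3H: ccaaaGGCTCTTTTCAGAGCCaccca
HIST1H4H: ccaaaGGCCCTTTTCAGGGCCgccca
HIST2H4A: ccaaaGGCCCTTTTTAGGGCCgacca
H2AFX: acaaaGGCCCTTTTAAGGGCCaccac

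Promoters from RefSeq (GRCh38.p14) were matched to 80 of the 94 members, as windows from 250 bases before to 50 bases after the start. They were searched on both strands for TATAAA, for CCAAT, for the octamer ATTTGCAT, which POU2F1 binds, and for AAACACA, an element of H1 promoters. The octamer stood in 13 of 17 clustered H2B promoters (76.5%) and 11 of 16 clustered H2A promoters (68.8%), and in 1.8% of all 27305 promoters. AAACACA stood in 6 of 6 clustered H1 promoters and in 5.76% of all promoters. CCAAT was found in every matched clustered H1, H2A, H2B and H3 promoter, in 3 of 13 clustered H4 promoters (23.1%) and in 35.7% of all. It also stood in 13 of 16 promoters outside the clusters (81.2%), against 84.4% of the clustered ones. TATAAA was found in 42 of 64 clustered promoters (65.6%), in 4 of 16 promoters outside the clusters (25%) and in 12% of all. Neighbours on opposite strands can share most of a window, as HIST1H2BC (chr6:26123877-26124176) and HIST1H2AC (chr6:26123922-26124221) do. HIST1H3D and HIST1H2AD had the same window. The same letters can thus be counted for more than 1 gene, and the promoters in these shares are not independent. A match to these letters describes the sequence and is not evidence of a bound factor.

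The 150 bases before the start are printed for genes that stand for different types or different responses below, each on its own strand, 5′ to 3′, with the letters of the 4 motifs in capitals. The last 4 bases of the HIST1H2BG line lie inside its GENCODE model. No motif letters stood in these 150 bases of HIST2H4A.
HIST2H2BE (chr1:149886683-149886832, minus strand): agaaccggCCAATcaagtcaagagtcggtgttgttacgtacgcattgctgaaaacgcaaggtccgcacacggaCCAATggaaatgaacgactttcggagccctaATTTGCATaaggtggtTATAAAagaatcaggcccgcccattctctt
HIST1H2BG (chr6:26216689-26216838, minus strand): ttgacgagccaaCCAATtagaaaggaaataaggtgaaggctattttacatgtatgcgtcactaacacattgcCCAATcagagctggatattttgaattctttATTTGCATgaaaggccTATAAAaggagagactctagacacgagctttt
HIST1H2BC (chr6:26123927-26124076, minus strand): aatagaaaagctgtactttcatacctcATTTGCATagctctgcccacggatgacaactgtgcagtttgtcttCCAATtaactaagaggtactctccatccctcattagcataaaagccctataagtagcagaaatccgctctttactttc
HIST1H2BK (chr6:27146859-27147008, minus strand): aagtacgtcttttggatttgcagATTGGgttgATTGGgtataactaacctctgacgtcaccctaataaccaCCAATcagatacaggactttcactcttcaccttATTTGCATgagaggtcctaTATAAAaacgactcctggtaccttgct
HIST1H1C (chr6:26056471-26056620, minus strand): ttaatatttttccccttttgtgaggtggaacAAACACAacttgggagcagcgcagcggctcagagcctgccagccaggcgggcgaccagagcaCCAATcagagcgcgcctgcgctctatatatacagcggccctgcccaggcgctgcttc
HIST1H3E (chr6:26224028-26224177, plus strand): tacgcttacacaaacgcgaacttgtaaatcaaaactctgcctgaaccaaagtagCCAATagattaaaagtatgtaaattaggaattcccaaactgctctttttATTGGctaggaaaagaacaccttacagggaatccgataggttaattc
HIST1H3H (chr6:27809901-27810050, plus strand): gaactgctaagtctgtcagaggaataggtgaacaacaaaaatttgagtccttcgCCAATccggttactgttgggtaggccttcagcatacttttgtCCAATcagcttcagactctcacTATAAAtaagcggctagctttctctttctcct
HIST2H4A (chr1:149832507-149832656, plus strand): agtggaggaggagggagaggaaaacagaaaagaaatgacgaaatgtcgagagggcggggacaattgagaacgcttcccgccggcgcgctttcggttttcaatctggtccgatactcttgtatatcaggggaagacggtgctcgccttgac

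Library totals ran from 28483235 to 29359024 counts, and histone genes held 0.188% to 0.302% of them. The control libraries differed from each other more than the drug replicates did, with a chi-square per degree of freedom of 58.1 over genes against 9.52 to 9.79. Clustered members gave few counts: 9 of the 75 had no count in any library and 33 stayed under 10 counts in every library. Of the 93 measurements, 48 passed the filter on low counts, 37 clustered and 11 outside. Because a gene that is near 0 in control can pass that filter through the group in which it is high, counts of members below are given for the 39 with at least 10 counts in both control libraries, 29 clustered and 10 outside. The 7 melanocytic markers summed to 4190 to 5450 CPM (counts per 1000000 counts of a library, after TMM scaling) in control, 4740 to 5030 with romidepsin, 3560 to 4110 with quisinostat and 3700 to 3780 with mivebresib. TYRP1 held most of this sum, DCT was at 0 to 0.18 CPM, and 4 of the 6 tested fell with mivebresib: SOX10 by 1.93, MITF by 1.47, MLANA by 1.33 and PMEL by 0.51 on the log2 scale. With quisinostat 3 of the 6 fell, MITF by 1.39, MLANA by 1.05 and SOX10 by 0.92, and with romidepsin SOX10 alone, by 0.39. Of all 15085 genes tested, 24.1% fell with mivebresib, 25.1% with quisinostat and 15.8% with romidepsin. The 5 markers of other cell types summed to at most 0.828 CPM in any library. CD3E and KRT5 had no counts, ALB at most 2, PTPRC at most 11 and PECAM1 at most 17. PECAM1 passed the filter on low counts through the quisinostat libraries, so its log2 FC of 1.78 with quisinostat is a description with no test. The part of these markers in the histone values was not tested.

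Mivebresib was followed by higher expression of most clustered histone genes. Summed over the clustered genes, CPM was 342 and 294 in the control libraries, 207 and 228 with romidepsin, 214 and 188 with quisinostat, and 930 and 846 with mivebresib. The mivebresib sum of 888 ± 59.3 CPM (SD, n = 2) was 2.79 times the control sum of 318 ± 34.4 CPM, and the groups did not overlap. The sums with romidepsin (217 ± 14.7 CPM) and quisinostat (201 ± 18.3 CPM) were 0.683 and 0.633 times the control sum, also without overlap. With 2 libraries a group, an exact permutation test cannot reach 0.05, so no test is given for sums. A lower sum in bulk RNA can mean fewer cells in S phase or less histone mRNA per cell, which cannot be told apart here. The genes outside the clusters summed to 2045 and 1713 CPM in control, 1743 and 1782 with romidepsin, 1779 and 1640 with quisinostat, and 2239 and 2136 with mivebresib. Both romidepsin libraries lay within the control range and 1 quisinostat library lay below it, while both mivebresib libraries lay above it, at 1.16 times the control mean.

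**Figure D1:**
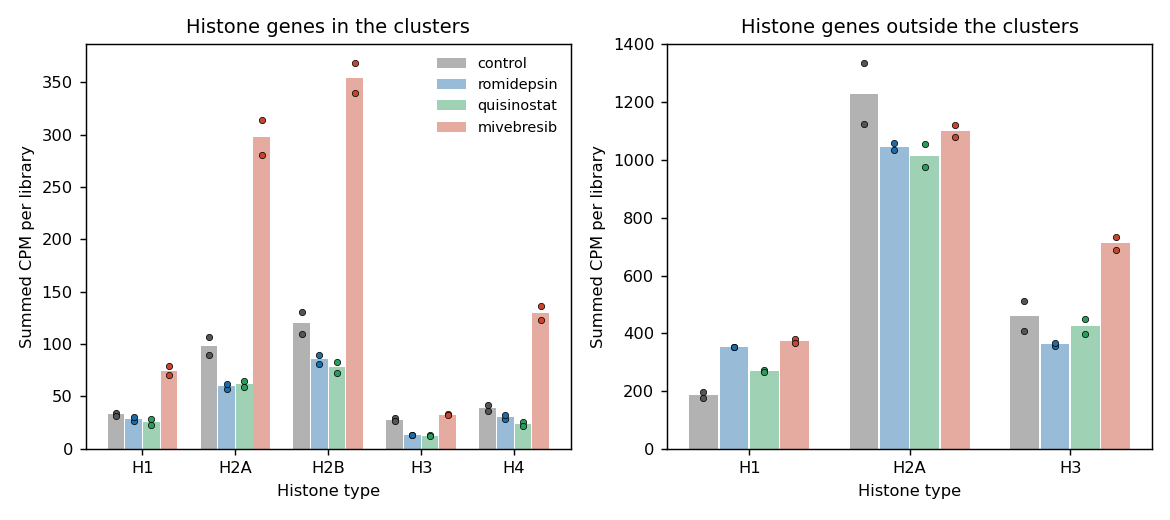
Summed CPM of histone genes by type in each library, with bars for the mean of 2 libraries and points for the libraries; H2B outside the clusters, below 4 CPM, is not drawn. Clustered H2B reached 368 and 340 CPM with mivebresib against 130 and 110 CPM in control, while clustered H3 stayed between 12.2 and 32.8 CPM in all groups.

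By type, the clustered H4 sum with mivebresib was 3.35 times that of control, H2A 3.02 times, H2B 2.95 times and H1 2.25 times. Clustered H3 was the exception at 1.17 times, with 28.9 and 26.4 CPM in control and 32.8 and 32.0 CPM with mivebresib. Clustered H3 also had the lowest ratios with romidepsin (0.481) and quisinostat (0.453). A single gene, HIST1H3E, held most of the clustered H3 counts in control. Outside the clusters, the H1 sum was 1.89, 1.45 and 2.0 times control with romidepsin, quisinostat and mivebresib, and the H3 sum was 0.787, 0.922 and 1.55 times control.

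Gene by gene, 24 of the 29 clustered members with at least 10 control counts rose with mivebresib, 1 fell and 4 were not called, by edgeR's quasi-likelihood test at a Benjamini-Hochberg adjusted p below 0.05. Among all 13326 genes with the same control counts, 22.4% rose and 26.9% fell. The median log2 fold change (FC) of these 29 members was 1.46, against -0.03 for those genes. The members that rose include HIST2H2BC (log2 FC 1.45), which GENCODE 29 annotates as a pseudogene. At the additional threshold of a log2 FC beyond 1.5, which the study used, 13 of the 29 rose, against 2.16% of those genes. Of the 10 members outside the clusters, 5 rose and 1 fell, with a median of 0.35. The count of clustered members that rose lay between 22 and 25 when any 1 library was left out.

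Over all 48 tested members, with those low in control included, 1 rose and 15 fell with romidepsin, 6 and 20 with quisinostat, and 34 and 2 with mivebresib. Of all 15085 genes tested, 15.2% rose and 15.8% fell with romidepsin, 28% and 25.1% with quisinostat, and 22.2% and 24.1% with mivebresib. Beyond a log2 FC of 1.5 these shares were 3.77% and 0.312%, 11.2% and 1.03%, and 3.96% and 4.36%, and the members counted 0 and 1, 1 and 7, and 18 and 0. Quisinostat against romidepsin called 5 members higher and 7 lower, where 21% and 14.6% of genes were called, or 5.41% and 0.179% beyond 1.5. Mivebresib against romidepsin called 39 higher and 1 lower, beside 23.7% and 25.2% of genes, or 2.52% and 6.7% beyond 1.5. Mivebresib against quisinostat likewise called 39 and 1, beside 26.2% and 31.5% of genes, or 1.73% and 12.6% beyond 1.5.

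**Figure D2:**
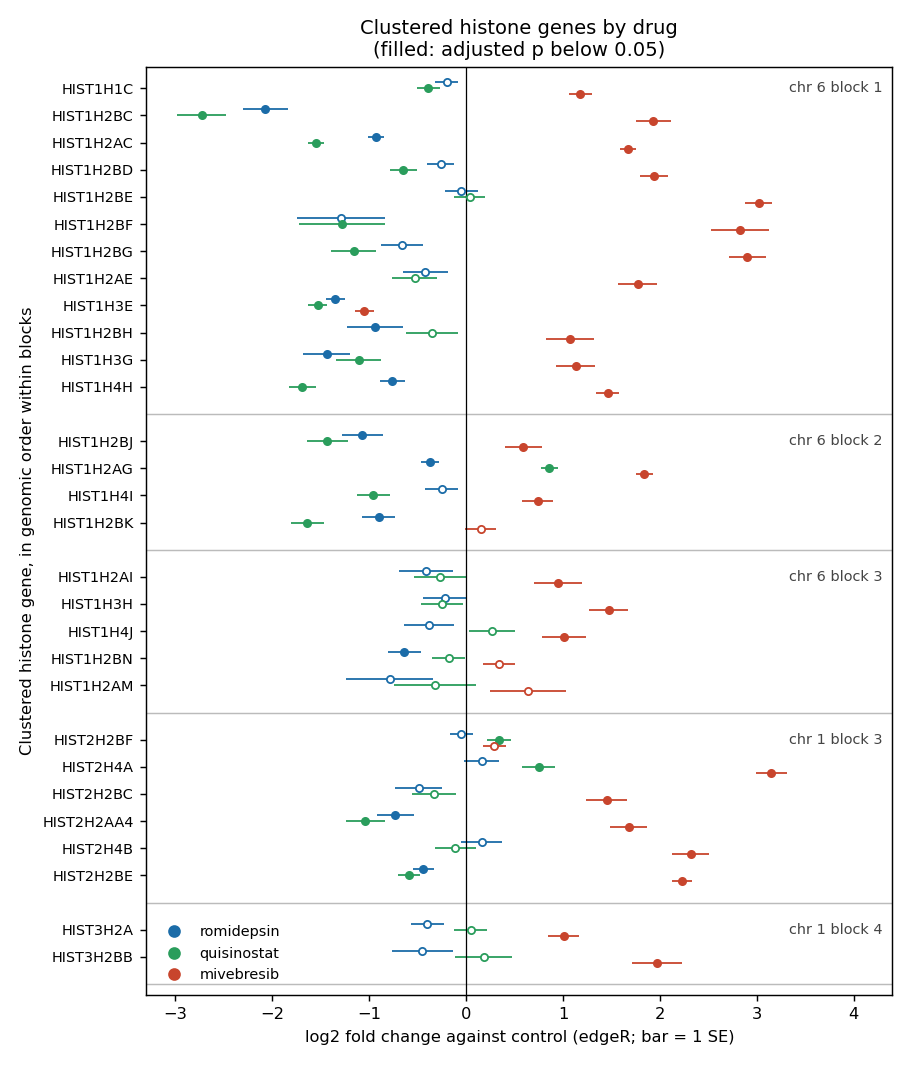
Log2 FC against control of the 29 clustered histone genes with at least 10 counts in both control libraries, by drug, in genomic order within 5 blocks; points are edgeR estimates, bars 1 SE, and filled points have an adjusted p below 0.05. With mivebresib, 28 of the 29 points lie above 0, and with romidepsin 27 lie below it.

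HIST2H2BE, a clustered H2B gene on chromosome 1 (chr1:149884459-149886652) whose model runs 1729 bases past its stem-loop, stood at 19.3 and 19.5 CPM in control, 14.3 and 14.3 with romidepsin, 13.8 and 12.0 with quisinostat, and 97.8 and 84.3 with mivebresib. Both mivebresib libraries were far above all the others, and the HDAC inhibitor libraries lay below control. The log2 FC was 2.23 ± 0.10 (SE) with mivebresib (adjusted p = 2.71e-06), -0.44 ± 0.11 with romidepsin (0.0153) and -0.59 ± 0.11 with quisinostat (0.00199) by edgeR. The romidepsin call was lost without either romidepsin replicate (adjusted p = 0.0897 and 0.0802).

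HIST1H2AC, the clustered H2A gene with the largest mean CPM (chr6:26124145-26139116), was at 45.3 and 44.05 CPM in control, 23.05 and 23.8 with romidepsin, 15.6 and 14.97 with quisinostat, and 146 and 138 with mivebresib. The 4 groups did not overlap. By edgeR it fell by 0.93 on the log2 scale with romidepsin and by 1.55 with quisinostat, and rose by 1.67 with mivebresib (adjusted p = 0.000125, 2.83e-06 and 2.3e-06). HIST1H2BC, its neighbour on the opposite strand, was at 4.25 and 3.98 CPM in control, 1.07 and 0.895 with romidepsin, 0.823 and 0.414 with quisinostat, and 15.6 and 15.9 with mivebresib. Its log2 FC were the lowest of the clustered members with both HDAC inhibitors, -2.07 ± 0.23 and -2.73 ± 0.25, and 1.93 ± 0.18 with mivebresib (edgeR adjusted p = 0.00049, 4.53e-05 and 6.06e-05).

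HIST2H4A had the largest rise with mivebresib among the members with at least 10 control counts. It was at 4.39 and 3.69 CPM in control, 3.95 and 5.06 with romidepsin, 7.47 and 6.18 with quisinostat, and 38.3 and 33.4 with mivebresib, a log2 FC of 3.15 ± 0.16 (edgeR adjusted p = 4.17e-06). It was also 1 of 3 clustered members that rose with quisinostat (0.75 ± 0.17, adjusted p = 0.00603). Its transcripts share 98.6% of their 31-base words with HIST2H4B, whose log2 FC with mivebresib was 2.32 ± 0.19 (adjusted p = 3.7e-05), so how reads were split between the copies is uncertain. Both also overlap HIST2H3A or HIST2H3C on the opposite strand. HIST2H3A, counted the same as HIST2H3C, had 0.39 and 0.29 CPM in control and 3.55 and 3.70 CPM with mivebresib (log2 FC 3.39 ± 0.27). It did not reach 10 counts in both control libraries, so this value is a description with no test.

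A larger fold came from a gene almost silent in control. HIST1H3B had 3 counts over both control libraries and 60 over both mivebresib libraries, a ratio of 20 with an exact 95% interval of 6.52 to 99.7 that covers counting error only. HIST1H4E, at 0.60 and 0.26 CPM in control, was at 2.09 and 1.80 CPM with mivebresib, a log2 FC of 2.16. HIST1H3B passed the filter on low counts only through the mivebresib libraries and HIST1H4E largely through them, so these values are a description with no test.

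Other abundant clustered genes also rose with mivebresib. HIST1H1C, which encodes the linker histone H1.2, was the only clustered H1 gene of 6 that passed the filter on low counts. It was at 34.0 and 31.4 CPM in control, 26.6 and 30.2 with romidepsin, 27.7 and 22.3 with quisinostat, and 78.0 and 69.7 with mivebresib (log2 FC 1.18 ± 0.12, edgeR adjusted p = 0.000117). HIST1H2BD was at 35.5 and 27.3 CPM in control and 125 and 116 with mivebresib, a log2 FC of 1.94 ± 0.14. HIST2H2AA4, which shares 97.2% of its 31-base words with HIST2H2AA3, a gene with no count in any library, was at 31.6 and 22.2 CPM in control and 95.9 and 76.5 with mivebresib (1.68 ± 0.19). For HIST1H4H the values were 20.3 and 16.8 against 55.4 and 47.0 CPM (1.46 ± 0.12). All of these had no overlap between mivebresib and control.

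The remaining named members were lower in level. HIST1H2AG rose from 9.18 and 8.69 CPM to 32.0 and 32.1 with mivebresib (log2 FC 1.84 ± 0.09), HIST1H3H from 4.46 and 3.11 to 11.1 and 9.89 (1.47 ± 0.20), and HIST1H4I from 8.82 and 10.5 to 16.1 and 16.3 (0.74 ± 0.16). HIST1H3G was at 2.76 and 2.30 CPM in control and 5.74 and 5.40 with mivebresib (1.13 ± 0.20). HIST1H2BE and HIST1H2BG, chosen after their values were seen, had log2 FC of 3.02 ± 0.14 and 2.90 ± 0.19, from 1.91 and 1.97 CPM to 16.4 and 15.3 and from 5.10 and 3.07 CPM to 31.1 and 30.0. Of the low genes, HIST4H4, alone on chromosome 12, had 0.25 and 0.29 CPM in control and 0.84 and 0.72 with mivebresib. Its log2 FC was 1.52 ± 0.36, and 1.40 without control replicate 1. HIST4H4 did not reach 10 counts in both control libraries either, so these values are a description with no test.

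HIST1H3E (chr6:26224199-26227473) went the other way. It was at 20.7 and 20.2 CPM in control, 8.21 and 7.82 with romidepsin, 7.22 and 6.91 with quisinostat, and 9.33 and 10.4 with mivebresib, so that all 6 drug libraries lay below both controls. The log2 FC was -1.35 ± 0.10, -1.53 ± 0.10 and -1.05 ± 0.10 (edgeR adjusted p = 9.87e-05, 8.79e-06 and 7.18e-05). Its annotation has a spliced transcript and no stem-loop letters, with an exon length of 2679 bases. HIST1H3G and HIST1H3H, the other H3 genes with at least 10 control counts, both rose with mivebresib as given above. The 4 clustered members not called with mivebresib, chosen after their values were seen, were HIST1H2AM (log2 FC 0.64 ± 0.39), HIST1H2BN (0.34 ± 0.17), HIST2H2BF (0.29 ± 0.12) and HIST1H2BK (0.15 ± 0.16).

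With romidepsin, 12 of the 29 clustered members fell and 17 were not called, with a median log2 FC of -0.46, against 17.8% of the 13326 genes lower and 14.2% higher. The 12 were HIST1H2AC, HIST1H2AG, HIST1H2BC, HIST1H2BH, HIST1H2BJ, HIST1H2BK, HIST1H2BN, HIST1H3E, HIST1H3G, HIST1H4H, HIST2H2AA4 and HIST2H2BE, of which HIST1H2BC alone passed a log2 FC of -1.5, as did 0.315% of those genes. The call of HIST1H2AG was lost under DESeq2 (adjusted p = 0.0579), and that of HIST2H2AA4 without control replicate 1 or either romidepsin replicate (0.0739, 0.152 and 0.0533). This count depended on single libraries: it was 6 without romidepsin replicate 1, 7 without replicate 2, and 8 with the 4 libraries of the comparison alone. With quisinostat, 14 fell, 3 rose and 12 were not called, with a median of -0.39, against 28.4% of those genes lower and 24.5% higher. HIST1H2BK, a clustered H2B gene, fell from 28.2 and 23.1 CPM to 12.7 and 14.7 with romidepsin and 9.15 and 7.32 with quisinostat (log2 FC -0.90 ± 0.17 and -1.64 ± 0.17, edgeR adjusted p = 0.0048 and 0.000103), and was at 32.2 and 24.8 with mivebresib. Without romidepsin replicate 1 the first of these calls was lost (-0.80, adjusted p = 0.0501). Its counts are uncertain, since its model shares 74.4% of its 31-base words with H2BFS. HIST1H4H fell by 0.76 and 1.69 on the log2 scale with romidepsin and quisinostat (edgeR adjusted p = 0.00324 and 2.34e-05).

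The HDAC inhibitors, both at 40 nM, were also compared directly. Of the 29 clustered members, 3 were higher with quisinostat than with romidepsin and 4 lower, against 18.8% and 16.5% of the 13326 genes. These counts rested on single libraries: they were 5 and 6 without either control replicate, 1 and 4 without romidepsin replicate 1, 3 and 2 without romidepsin replicate 2, 1 and 5 without quisinostat replicate 1, 2 and 2 without quisinostat replicate 2, and 2 and 4 without mivebresib replicate 2. The largest difference was HIST1H2AG, at 6.87 and 6.96 CPM with romidepsin and 16.4 and 16.1 with quisinostat (log2 difference 1.23, edgeR adjusted p = 7.74e-05), which had fallen by 0.37 against control with the former and risen by 0.86 with the latter. HIST2H4A (0.60) and HIST2H2BF (0.38) were the others that were higher. HIST1H4H (-0.93), HIST1H2BK (-0.74), HIST1H4I (-0.71) and HIST1H2AC (-0.61) were lower with quisinostat. With mivebresib, at 1200 nM, 29 of 29 clustered members were called higher than with romidepsin, against 25.5% of the 13326 genes. Against quisinostat 27 of 29 were called higher, beside 29% of those genes. The doses differ between these drugs.

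The clustered genes lie in blocks. The first block of chromosome 6 (chr6:25726132-26285638) holds 34 members, 12 of them with at least 10 control counts. With mivebresib 11 of these rose and HIST1H3E fell, with romidepsin 6 fell and with quisinostat 9 fell, with medians of 1.72, -0.85 and -1.13. In the third block of chromosome 6 (chr6:27807444-27893843), 3 of 5 rose with mivebresib, with a median of 0.95, and the log2 FC with quisinostat ran from -0.32 to 0.27. In the block at chr1:149782689-149887916, 5 of 6 rose with mivebresib with a median of 1.95, and quisinostat raised 2 and lowered 2. Of the 13326 genes with the same control counts, 22.4% rose with mivebresib, 17.8% fell with romidepsin, and 24.5% rose and 28.4% fell with quisinostat, to which the quisinostat counts of this last block are close. No test of a difference between blocks was made.

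Many H2A and H2B genes are transcribed away from each other from a short shared interval. There were 14 pairs of clustered genes that ran apart from starts under 1000 bases from each other, all of them H2A with H2B except HIST1H3J with HIST1H2BO. HIST1H2BC and HIST1H2AC, with 218 bases between their starts, moved in the same direction with each drug. HIST1H2BJ and HIST1H2AG, 291 bases apart, did not with quisinostat: HIST1H2BJ fell by 1.43 on the log2 scale and HIST1H2AG rose by 0.86 (edgeR adjusted p = 0.00066 and 8.29e-05). Levels within a pair could be far apart too. HIST2H2BE reached 2675 counts in its highest library and its partner HIST2H2AC, 322 bases away, 12 counts, and HIST1H2BK and HIST1H2AH, 330 bases away, had at most 880 and 5 counts. The HIST1H2AH model was among the members too low to test.

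How far the annotated model extended beyond the stem-loop was also recorded, since polyadenylated histone transcripts run past it. Of the 29 members, 19 had a model reaching at least 100 bases past the stem-loop, and 17 of them rose with mivebresib, with a median log2 FC of 1.67. The other 10 had a model with a shorter reach or without the stem-loop letters, and 7 of them rose and 1 fell, with a median of 0.98. The 1 that fell was HIST1H3E, whose model of 2679 bases lacks the letters. With romidepsin 8 of 19 and 4 of 10 fell, and with quisinostat 8 of 19 and 6 of 10 fell. The shares of the 13326 genes were 22.4% higher and 26.9% lower with mivebresib, 17.8% lower with romidepsin and 28.4% lower with quisinostat. These counts describe the models in GENCODE 29, and the annotation behind the deposited counts is not given in the sources used here. Reads within and beyond the stem-loop were not told apart.

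Outside the clusters, H1F0, the linker histone H1.0 known to accumulate in differentiating and non-dividing cells, was higher with all 3 drugs. It was at 177 and 166 CPM in control, 334 and 337 with romidepsin, 258 and 246 with quisinostat, and 343 and 336 with mivebresib. No drug group overlapped control, while romidepsin and mivebresib overlapped each other. The log2 FC was 0.97 ± 0.08, 0.56 ± 0.08 and 0.98 ± 0.08 (edgeR adjusted p = 0.000128, 0.000539 and 3.39e-05). H1FX, another linker histone made outside S phase, was at 18.7 and 11.3 CPM in control and 37.0 and 32.3 with mivebresib (1.20 ± 0.21, adjusted p = 0.00169), and its HDAC inhibitor libraries, at 16.3 to 19.8 CPM, overlapped the control libraries. Its log2 FC of 0.16 and 0.26 were not called, and without control replicate 1 they were 0.59 and 0.67 and passed (adjusted p = 0.0126 and 0.00278). H1FX overlaps the antisense gene H1FX-AS1, and whether the counting used strand is not given in the sources used here.

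**Figure D3:**
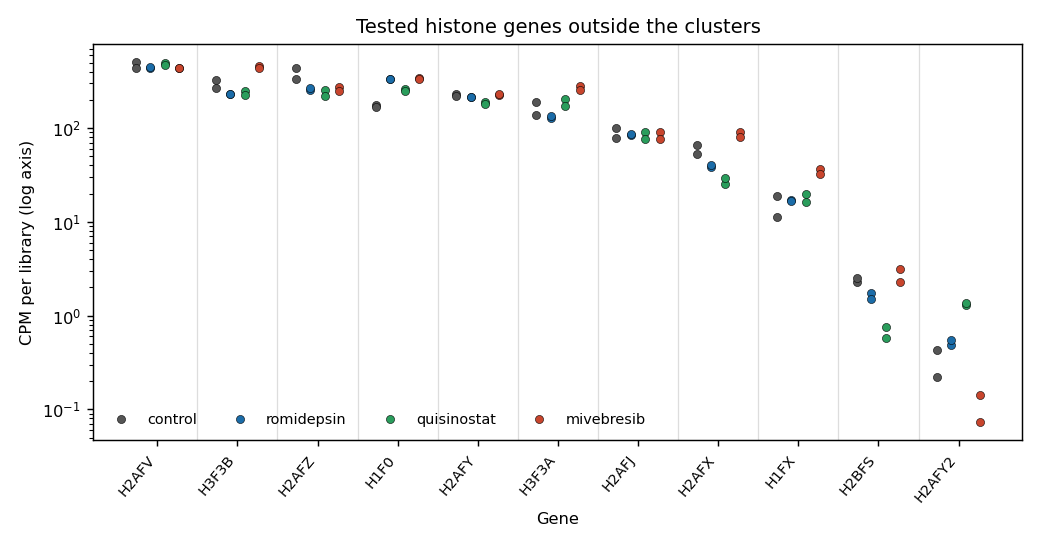
CPM in each library, on a log axis, of the 11 tested histone genes outside the clusters, ordered by mean CPM. H1F0 lies above control with all 3 drugs, H2AFZ below it, and H3F3B above control only with mivebresib.

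The pair of genes that encode the replacement H3 variant, H3F3A and H3F3B, rose with mivebresib. H3F3A was at 188 and 138 CPM in control and 281 and 255 with mivebresib (log2 FC 0.72 ± 0.15, edgeR adjusted p = 0.00408), and H3F3B at 324 and 270.3 CPM in control and 454 and 432 with mivebresib (0.58 ± 0.11, 0.00241). H3F3B fell by 0.37 with romidepsin and by 0.33 with quisinostat (adjusted p = 0.0304 and 0.0284), calls that were lost under upper-quartile scaling (0.0723 and 0.145) and under several other alternatives. H3F3A was at 129 to 135 CPM with romidepsin and 174 to 202 with quisinostat and was not called with either. It passed with romidepsin without control replicate 2 (-0.51, adjusted p = 0.0028) and with quisinostat, in the other direction, without control replicate 1 (0.44, adjusted p = 0.00451).

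Among the H2A variants, H2AFX fell with the HDAC inhibitors and rose with mivebresib. It was at 65.3 and 53.4 CPM in control, 38.6 and 40.5 with romidepsin, 25.1 and 29.2 with quisinostat, and 91.7 and 79.8 with mivebresib, with no overlap between groups. The log2 FC was -0.59 ± 0.12, -1.13 ± 0.13 and 0.53 ± 0.12 (edgeR adjusted p = 0.00839, 0.000134 and 0.00741). The mivebresib call was lost without mivebresib replicate 1 (0.42, adjusted p = 0.0651), and the romidepsin call without romidepsin replicate 1 (-0.55, adjusted p = 0.0706). H2AFZ, which encodes the variant H2A.Z found around transcription starts, fell in all 3 comparisons, from 434 and 331 CPM to 255 and 266 with romidepsin, 254 and 219 with quisinostat and 275 and 246 with mivebresib (-0.56 ± 0.14, -0.69 ± 0.14 and -0.56 ± 0.14, edgeR adjusted p = 0.0172, 0.00312 and 0.0107). Without mivebresib replicate 2 the last was -0.48 with an adjusted p of 0.0873. The romidepsin call was lost without romidepsin replicate 1 or 2 (adjusted p = 0.115 and 0.0757).

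H2AFV, the second H2A.Z gene, stayed at 439 to 507 CPM in all libraries, and H2AFJ at 75.8 to 99.5 CPM, and neither was called with any drug. H2AFY, which encodes macroH2A1, was at 229 and 218 CPM in control and 192 and 179 with quisinostat (-0.27 ± 0.08, edgeR adjusted p = 0.0209). This call was lost with library size alone (edgeR adjusted p = 0.524), upper-quartile factors (0.18), a mean CPM of at least 5 (0.084) and the 4 libraries of the comparison (0.0937). Without quisinostat replicate 1 or 2 the log2 FC was -0.31 or -0.23, and the call was lost too. H2AFY2, for macroH2A2, was nearly silent, at 0.43 and 0.22 CPM in control and 1.30 and 1.37 with quisinostat (log2 FC 2.03 ± 0.37). It did not reach 10 counts in both control libraries, so the quisinostat value is a description with no test. With mivebresib it had 6 counts over both libraries against 18 in control, a ratio of 0.333 with an exact 95% interval of 0.108 to 0.877, and edgeR did not call it (adjusted p = 0.0574). H2BFS, which shares most of its sequence with HIST1H2BK, was at 2.30 and 2.52 CPM in control and 0.76 and 0.57 with quisinostat (-1.85 ± 0.26, adjusted p = 0.000529).

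Per kilobase of annotated exon, H2AFZ had the highest control level of all members, at 166 CPM per kb, followed by H2AFV at 99.97, H1F0 at 73.2, HIST1H2BK at 67.4, H3F3A at 51.8 and HIST1H1C at 50.9 CPM per kb. With mivebresib the order of levels changed: HIST2H2AA4 stood at 153 CPM per kb, H1F0 at 145, HIST1H2BD at 139, HIST1H1C at 115 and H2AFZ at 113. The last 2 differed by less than the spread between the libraries of HIST1H1C. Clustered models that hold only the coding sequence give a higher level per length than models with long ends, which limits this order. The length also joined the exons of all annotated transcripts, which lowers the level of genes with many. H3F3B, for example, has 6134 such bases and a longest transcript of 2787. HIST2H2AA4 shares 97.2% of its 31-base words with HIST2H2AA3, which had no count, so its level may hold reads of both genes.

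Genes that act on histone mRNA and genes of S phase were set beside these values, with lists made by hand. All 24 genes of the list for histone gene expression were tested; 9 fell with romidepsin, 11 fell and 2 rose with quisinostat, and 6 fell and 3 rose with mivebresib, with medians of -0.24, -0.35 and -0.17. Of all 15085 genes tested, 15.8%, 25.1% and 24.1% fell and 15.2%, 28% and 22.2% rose with the 3 drugs, so that the share of this list that fell with mivebresib was near that of all genes. SLBP averaged 64.5 CPM in control, 44.8 with romidepsin, 36.1 with quisinostat and 80.8 with mivebresib. Its log2 FC of -0.53 and -0.84 were called (edgeR adjusted p = 0.0134 and 0.000621) while that of 0.32 was not (0.0567). CDK2, whose complex with cyclin E activates the histone gene coactivator NPAT, fell by 0.28, 1.12 and 1.43 on the log2 scale, and CCNE2, a cyclin E, fell by 1.64 and 1.82 with the HDAC inhibitors and had a log2 FC of -0.17 with mivebresib (adjusted p = 0.166). LSM11, a subunit of the U7 particle that cuts histone mRNA, fell by 0.86 with mivebresib. The 3 that rose with mivebresib, chosen after their values were seen, were HINFP (0.52), a transcription factor of H4 genes, NCBP1 (0.30), a cap-binding protein, and ERI1 (0.28), an exonuclease of histone mRNA ends.

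Of 37 S phase genes, 34 fell with romidepsin, 36 with quisinostat and 29 with mivebresib, with median log2 FC of -0.84, -1.38 and -0.61. Their summed CPM was 2500 to 2580 in control, 1400 in both romidepsin libraries, 1000 to 1010 with quisinostat and 1770 to 1790 with mivebresib. With mivebresib, S phase genes were thus lower in the same libraries in which clustered histone genes were higher, and with both HDAC inhibitors the sums of both lists were lower. RRM2, the ribonucleotide reductase subunit that makes DNA precursors, averaged 174, 63.6, 28.8 and 84.7 CPM in the 4 groups, and MCM5, of the replicative helicase, 54.1, 21.8, 11.2 and 25.2 CPM. Cell cycle phase was not measured, and its part in the histone values was not tested. Of 36 histone chaperone genes, 22 fell and 2 rose with romidepsin, 26 fell and 1 rose with quisinostat, and 10 fell and 3 rose with mivebresib, the last count of falls being near the 24.1% of all genes. ASF1B, which hands H3 and H4 to assembly factors, fell by 1.24, 1.80 and 0.42 on the log2 scale. CHAF1B, of the assembly factor CAF-1, fell by 0.59 and 0.94 with the HDAC inhibitors. With mivebresib CHAF1B rose by 0.36 (edgeR adjusted p = 0.00785), whereas CHAF1A, also of CAF-1, fell by 0.84 (edgeR adjusted p = 0.000152). CHAF1A fell with both HDAC inhibitors too.

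**Figure D4:**
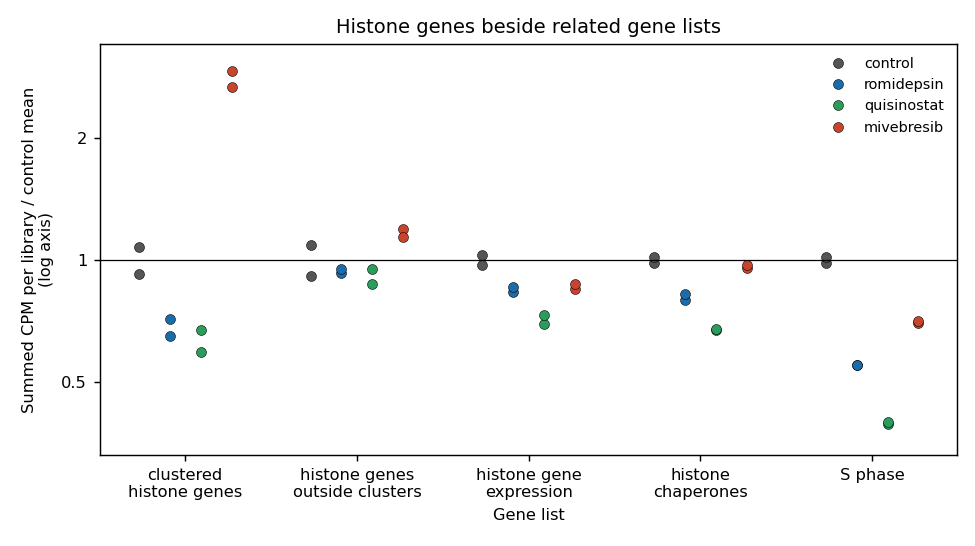
Summed CPM per library divided by the control mean, on a log axis, for clustered histone genes, histone genes outside the clusters and 3 related gene lists. With mivebresib the clustered histone points lie near 2.79 times control while the S phase points lie below 1.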

How the data were processed

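RNA from MP38 cells was sequenced from strand-specific mRNA libraries as paired reads of 150 bases. The authors deposited raw read counts per gene symbol, made with BioJupies; per the labels the build was hg38. The aligner, annotation and strand setting are not given in the sources used here. Tables of the authors' normalized values were not used.

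Counts of all 8 libraries entered 1 edgeR 4.0.16 model in R 4.3.3 (TMM scaling, filterByExpr, quasi-likelihood test), with Benjamini-Hochberg adjustment over 15085 genes and a biological coefficient of variation of 0.0938. CPM values are TMM-scaled and relative within a library. p-values measure the spread between wells, and intervals cover counting error only. On simulated counts for mivebresib against control, with 14715 genes and 200 changed by a log2 FC of 2, edgeR recovered 92.5%, DESeq2 92% (92.0) and limma-voom 93% (93.0). They also called 17, 30 and 15 unchanged genes. Each simulated gene had the same dispersion in all groups, so the wider spread between the control libraries was not reproduced.

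The members, gene lists and tests were chosen with earlier results of these data known. Genes were named by rule: every tested member outside the clusters, the 3 clustered genes of each type with the largest mean CPM, the 3 largest called rises and falls per drug, and up to 8 per list. Alternatives were DESeq2 1.42.0, limma-voom (limma 3.58.1), other scalings and filters, the 4 libraries of a comparison, a replicate block, a log2 FC beyond 1.5, and each library left out; the restriction to at least 10 control counts was added after seeing the data. Annotation came from GENCODE 29 and RefSeq; Python 3.11.15, pandas 2.3.3, scipy 1.17.1 and matplotlib 3.10.9 were used.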

Additional observations from a re-analysis of the deposited data

Results flagged for a closer look

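HIST1H1PS1, an H1 pseudogene symbol that the rule for members left out, had 4 and 2 counts in control, 1 and 1 with romidepsin, 2 and 2 with quisinostat and 24 and 26 with mivebresib. It stands here because it is a signal outside the genes compared, above its control level: the log2 FC with mivebresib was 3.02. It passed the filter on low counts only through the mivebresib libraries, so this value is a description with no test. The source of these reads was not tested.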

How the results depend on the processing

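The rise of clustered histone genes with mivebresib kept its direction under each alternative run: the log2 ratio of summed CPM was 1.48, 1.5 with library size alone and 1.54 with upper-quartile factors, and 1.38 to 1.60 without single libraries. The corresponding ratios were -0.55 (-0.66 to -0.43) with romidepsin and -0.66 (-0.77 to -0.55) with quisinostat. Outside the clusters the ratio with romidepsin was -0.09 and -0.21 to 0.04 without single libraries, with quisinostat -0.14, 0.06 with library size alone and -0.26 to -0.00 without single libraries, and with mivebresib 0.22 and 0.10 to 0.35; the direction for the HDAC inhibitors is thus not settled. Library size alone moved the median log2 FC of all genes with quisinostat from 0.00 to 0.20.

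Over all 48 tested members, calls with romidepsin were 1 higher and 15 lower (1 to 3 and 6 to 18 without single libraries), with quisinostat 6 and 20 (4 to 8 and 15 to 21), and with mivebresib 34 and 2 (32 to 35 and 1 to 3). Quisinostat against romidepsin gave 5 higher and 7 lower (1 to 7 and 4 to 11), mivebresib against romidepsin 39 and 1 (35 to 39 and 0 to 1), and mivebresib against quisinostat 39 and 1 (34 to 40 and 1). With a log2 FC beyond 1.5, the counts of higher and lower were 0 and 1 for romidepsin, 1 and 7 for quisinostat, 18 and 0 for mivebresib, 0 and 0 for quisinostat against romidepsin, and 24 higher for mivebresib against romidepsin. A mean CPM of at least 5 left 28 members and 12 lower with quisinostat, 20 higher with mivebresib, 21 higher and 0 lower for mivebresib against romidepsin, and 23 higher and 0 lower against quisinostat, the fewer genes tested being its construction. With the 4 libraries of a comparison alone, romidepsin lowered 9 and quisinostat was lower than romidepsin for 11. For quisinostat against romidepsin, DESeq2 gave 3 higher and library size alone 8; the cause was not tested. Library size alone gave 2 lower for mivebresib against quisinostat. With at least 10 control counts required, an alternative chosen after seeing the data, 0 members were lower with mivebresib than with either HDAC inhibitor. Of 87 named genes and drugs, 1296 of 1367 alternative values kept their side of the threshold, and no called gene changed direction.

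The replicate numbers of the labels are shared only as numbers: correlations of deviations between groups ran from -0.162 to 0.158. A fit with the replicate block gave 34 members higher and 2 lower with mivebresib, 1 and 15 with romidepsin, and 5 and 20 with quisinostat; it lost the call of HIST4H4 with quisinostat (adjusted p = 0.0509).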
